A study of Brassica napus with 12 samples.

Results

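The first stretch of Brassica napus chromosome C04, with its homologous loci on chromosome A05, was examined in leaf RNA. Its members were the 259 C04 loci that start between positions 320 and 1919934 of the chromosome, out of 101040 loci measured, and they were joined to the 177 A05 loci that carry the same Arabidopsis identifier, here called partners. The stretch was selected on measured values, since its C04 levels in these libraries set its limits, so those levels, and sums that include them, are given as a description. The 12 libraries came from true leaf tissue of 21-day-old plants of the genotype RV31, and growth was in white light of 70 µmol per square metre and second. The treatments were UV-B light (3 µmol per square metre and second, for 4 h), feeding by larvae of the diamondback moth Plutella xylostella for 1 h (herbivory), or white light without UV-B (white light, the control of the UV-B plants). Others were sprayed with 4 mL of 100 µM methyl jasmonate (MeJA), with 4 mL of its solvent (EU), in which ethanol and UN65 were at 0.01% each, or with 4 mL of distilled water (water, its other control). Each treatment has 2 libraries here, numbered 41 and 42, and p-values measure only the spread between these libraries, which may be technical. Per the paper, RNA from 3 independent replicates of a treatment was pooled, so a library may hold several plants. Leaves were taken at 4 h in the labels. In the paper's methods, grazed and sprayed plants were kept after treatment in dimmer light than the white light plants. Sprayed plants were also covered, and grazed plants stood in a warmer cabinet. The paper's ungrazed control is not among these libraries, so herbivory over white light differs in light and temperature as well as feeding.

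Brassica napus is an allotetraploid: it holds an A subgenome from a Brassica rapa ancestor and a C subgenome from a Brassica oleracea ancestor, so most genes have a homoeologous copy in each. The starts of A05 and C04 derive from the same ancestral block and hold many of the same genes. Homoeologous chromosomes of this species can exchange segments, and the leaf level of a gene is the sum over its copies. Only RNA was measured here, and RNA levels do not show how many copies of a locus a plant carries.

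Levels are in scaled FPKM, the deposited fragments per kilobase and library size, divided by a factor for each library, and they can be compared between genes as levels per length. Reads of near-identical C04 and A05 copies can be shared out between them by the authors' counting, so each copy's level is uncertain by that amount. In bulk leaf RNA, fewer cells of a type and less RNA per cell cannot be told apart. The 4 green leaf markers summed to between 8963 and 44676 scaled FPKM over the libraries, whereas 3 root markers reached at most 1.17, 3 flower markers 3.97 and 3 seed markers 6.95. Read totals are unknown. The value of 1 read, taken from the steps between low values relative to herbivory 42, could be found in all libraries but UV-B 41 and EU 41, where no clear step stood out. A larger value means fewer reads. It was 1.59 in UV-B 42, 1.14 in herbivory 41, 1.68 and 1.33 in white light, 1.37 and 1.39 in MeJA, 1.55 in EU 42 and 1.39 and 1.14 in water, so the MeJA, water and EU 42 libraries lay within the depth range of the white light and herbivory ones.

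Of the 259 C04 members, 220 had an Arabidopsis match and 39 had none. The matched members covered 203 Arabidopsis identifiers, and 184 of the members matched genes of Arabidopsis chromosome 2 between AT2G40 and AT2G48. These lay in 2 blocks: 95 members matched AT2G46 or AT2G47 and started no further than position 1002166, and 89 matched AT2G40 to AT2G45 and started from 1007862 on. In leaf, 57 members were listed at 0 in every library, 118 had a mean of at least 1 scaled FPKM, and 135 reached 1 scaled FPKM in at least 2 libraries, the filter for tests. A partner on A05 was found for 177 members, 43 matched members had none, and the 177 A05 partners fell into 167 homologue sets, of which 153 held 1 C04 member and 1 A05 partner. On A05, 171 of the 177 partners started between positions 75683 and 1558956, and 6 lay further along the chromosome. The 203 identifiers had 533 further loci elsewhere, including 100 on the rest of C04, 78 on C03, 71 on A04 and 64 on A03. Among 20 genes of the stretch with roles listed by hand were the clock factor CCA1, the jasmonate-conjugating enzyme JAR1, the light-signalling repressor SPA1 and the zinc transporter MTP1.

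The C04 members of the 167 sets gave about as much RNA as their A05 partners in the UV-B, herbivory and white light libraries and in EU 41, and a small share of it in both MeJA libraries, both water libraries and EU 42. The C04 percentage of the summed level of the sets was 52.0 and 54.1 in UV-B, 52.5 and 52.0 in herbivory, 52.8 and 51.6 in white light, 6.15 and 6.30 in MeJA, 52.5 and 6.58 in EU, and 5.28 and 5.83 in water. As group means this was 53.1 ± 1.48% in UV-B, 52.3 ± 0.296% in herbivory, 52.2 ± 0.864% in white light, 6.23 ± 0.109% in MeJA, 29.5 ± 32.4% in EU and 5.56 ± 0.390% in water (SD, n = 2 each). The 2 EU libraries, which carry the same treatment label, were thus on either side: 52.5% in EU 41 and 6.58% in EU 42. Whether 1 of them is mislabelled or came from a plant or pool of plants of another makeup cannot be told apart here. EU means, EU over water and MeJA over EU carry that limit. Median shares over the 116 sets with a mean of at least 1 scaled FPKM gave the same picture, at 52.1 and 46.6 in UV-B, 51.2 and 51.5 in herbivory, 51.6 and 53.5 in white light, 0.720 and 0.602 in MeJA, 50.1 and 0.536 in EU, and 0.405 and 0.312 in water (percent). Single sets spread widely: the quartiles lay at 35.6 and 66.5% in white light 41 and at 0 and 8.36% in water 41. Sets with a C04 share under 10% numbered 4 and 7 of 116 in UV-B, 5 and 7 in herbivory, 4 and 7 in white light, 86 and 83 in MeJA, 7 in EU 41, 85 in EU 42, and 86 and 87 in water.

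**Figure D1:**
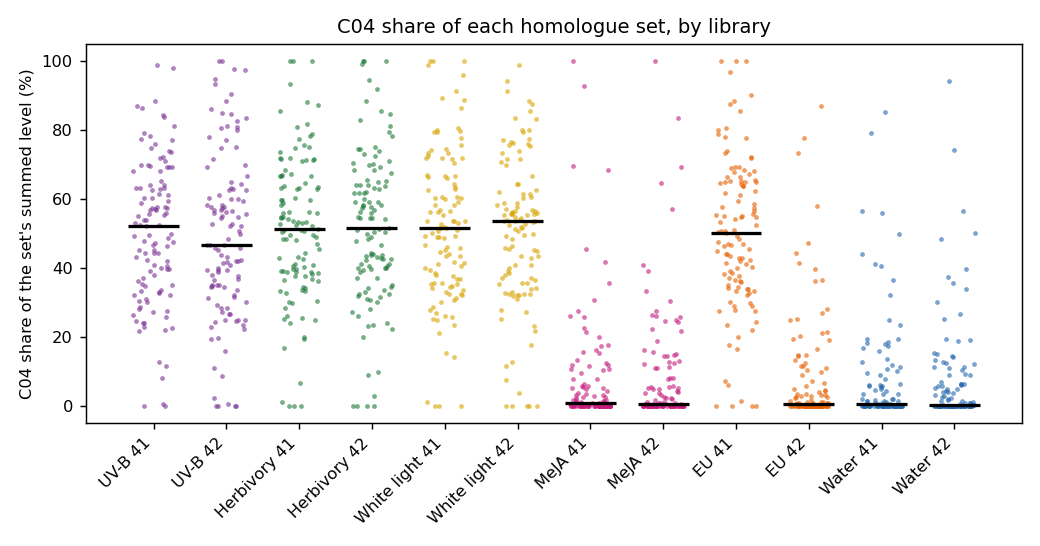
Each point is 1 of the 116 homologue sets with a mean of at least 1 scaled FPKM, the y axis gives the C04 share of the set's summed level in percent, and the black line is the median of the library. The medians lie between 46.6 and 53.5% in UV-B, herbivory, white light and EU 41 and between 0.312 and 0.720% in MeJA, EU 42 and water.

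Within EU, the library with less C04 RNA had more A05 RNA, and in MeJA and water the A05 sums were also well above the C04 sums. The C04 members of the sets summed to 1332 and 2701 in UV-B, 1290.3 and 1087 in herbivory, 1828 and 1228 in white light, 112 and 151 in MeJA, 982 and 126 in EU, and 127 and 106 in water, all in scaled FPKM. The A05 partners summed to 1229 and 2291 in UV-B, 1169 and 1001 in herbivory, 1635 and 1153 in white light, 1714 and 2244 in MeJA, 889.8 and 1789.6 in EU, and 2279 and 1714 in water, all in scaled FPKM. Added together, the 2 copies gave 2561 and 4992 in UV-B, 2459 and 2088 in herbivory, 3463 and 2381 in white light, 1826 and 2395 in MeJA, 1872 and 1916 in EU, and 2406 and 1819.8 in water, all in scaled FPKM. With this scaling, the UV-B totals overlapped only with white light and lay above every library of the other groups. Both white light and both herbivory totals lay above both EU totals, and the remaining pairs of groups overlapped. This order depends on the scaling: UV-B 41 was divided by 0.716, the smallest factor of the 12 libraries. The 2 EU libraries, with C04 sums of 982 and 126, had totals of 1872 and 1916.

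**Figure D2:**
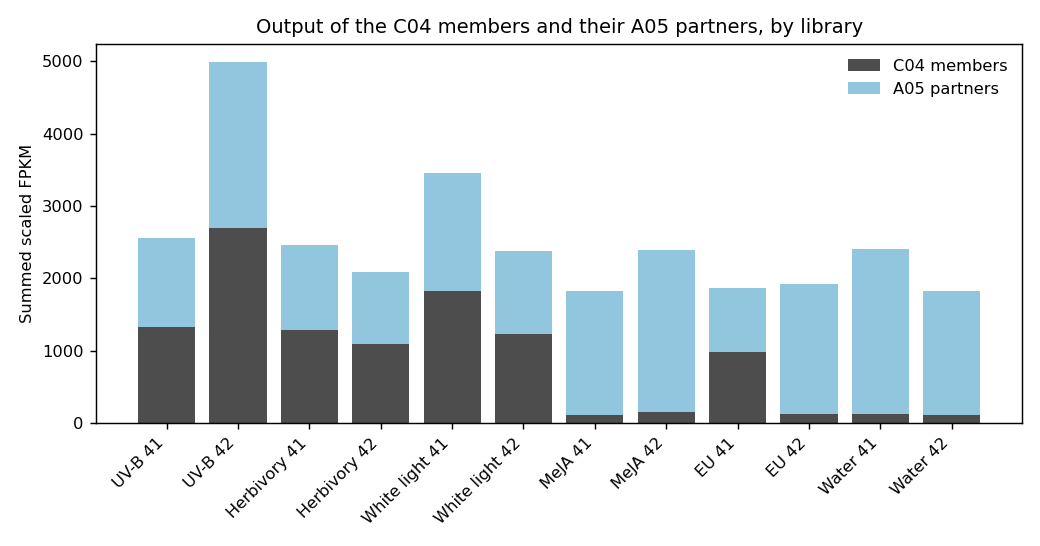
Bars give the summed scaled FPKM of C04 members (dark) and A05 partners (light) of the 167 sets in each library, stacked from 0. The C04 part is between 982 and 2701 in UV-B, herbivory, white light and EU 41 and between 106 and 151 in MeJA, EU 42 and water, whereas the total of EU 42, 1916, is close to that of EU 41, 1872.

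A few sets carried much of these sums. The set of CURT1B (also named PSAP, PTAC8 or TMP14), a thylakoid curvature protein, averaged 507 scaled FPKM over the libraries, that of AT2G41730, a small protein of unknown function, 128, and that of the expansin EXPA8, a cell wall loosening protein, 124. Without these 3, the totals were 1773 and 2478 in UV-B, 1719.8 and 1746 in herbivory, 1872 and 1769.9 in white light, 1609 and 1743 in MeJA, 1544 and 1508 in EU, and 1730.4 and 1578 in water, all in scaled FPKM. The spread between the 2 libraries of white light then shrank to 1872 and 1770, against 3463 and 2381 with them. The median over the 116 sets of the log2 ratio of the set total to its mean over libraries was -0.08 and -0.01 in UV-B, -0.06 and -0.02 in herbivory, -0.08 and -0.09 in white light, -0.27 and -0.24 in MeJA, -0.13 and -0.16 in EU, and -0.15 and -0.20 in water. With the values as deposited, the group mean of this median was lower in UV-B (-0.28) and white light (-0.25) than in MeJA (-0.10). With the scaling used here it was lowest in the 2 MeJA libraries, and EU 42 and EU 41 differed by less than the 2 UV-B libraries did. The same median for the A05 partners alone was -0.40 and -0.38 in UV-B, -0.40 and -0.37 in herbivory, -0.41 and -0.43 in white light, 0.21 and 0.20 in MeJA, -0.41 and 0.21 in EU, and 0.27 and 0.25 in water, so both MeJA libraries, EU 42 and both water libraries were at 0.20 or above on A05 and every other library was at -0.37 or below. For 62 of the same identifiers, further loci elsewhere in the genome with a mean sum of at least 1 scaled FPKM had medians of 0.02 and -0.12 in UV-B, -0.14 and -0.21 in herbivory, 0.01 and -0.03 in white light, -0.15 and -0.10 in MeJA, -0.10 and -0.21 in EU, and -0.12 and -0.23 in water. These ran from -0.23 in water 42 to 0.02 in UV-B 41.

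Among the 118 C04 members with a mean of at least 1 scaled FPKM, the number listed under 1 was 6 and 10 in UV-B, 8 and 4 in herbivory, 10 and 10 in white light, 94 and 91 in MeJA, 9 and 91 in EU, and 95 and 96 in water. The number listed at 0 was 1 and 4 in UV-B, 3 and 1 in herbivory, 6 and 5 in white light, 48 and 40 in MeJA, 4 and 51 in EU, and 49 and 53 in water. The median level of these members was 5.07 and 5.54 in UV-B, 4.94 and 4.58 in herbivory, 4.22 and 4.64 in white light, 0.132 and 0.181 in MeJA, 4.75 and 0.10 in EU, and 0.081 and 0.069 in water, all in scaled FPKM. All 259 members together made up between 0.157 and 0.218% of all FPKM in UV-B, herbivory and white light, 0.151% in EU 41, 0.0207% in EU 42 and between 0.0174 and 0.0193% in MeJA and water. Between the spray control and the grazed plants, both herbivory libraries lay above both water libraries in 126 of the 135 tested C04 members, beside 26.0% of all 50280 loci tested, and below them in 74 of the 118 tested A05 partners, beside 23.9% of all loci. This comparison was picked after the levels had been seen and has no test. The C04 count follows from the choice of the stretch on these levels. Its members could also pass the filter through the libraries where they were high, so that count is only a description.

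The low C04 levels ran from the first window of the chromosome to a sharp end. A running median over 11 neighbouring loci of the log2 ratio to the median library was below -1 in 108 and 103 of 262 windows in MeJA 41 and 42, in 104 in EU 42, and in 109 and 115 in water 41 and 42. No window was below -1 in either library of UV-B, herbivory or white light, nor in EU 41. The last such window was centred on a locus at 1.94 Mb in each of the 5 libraries named. In the bin from 1.5 to 2 Mb the median log2 ratio over 38 loci was between -1.11 and -0.98 in these libraries, and in the bin from 2 to 2.5 Mb it was between -0.09 and 0.08 over 38 loci.

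**Figure D3:**
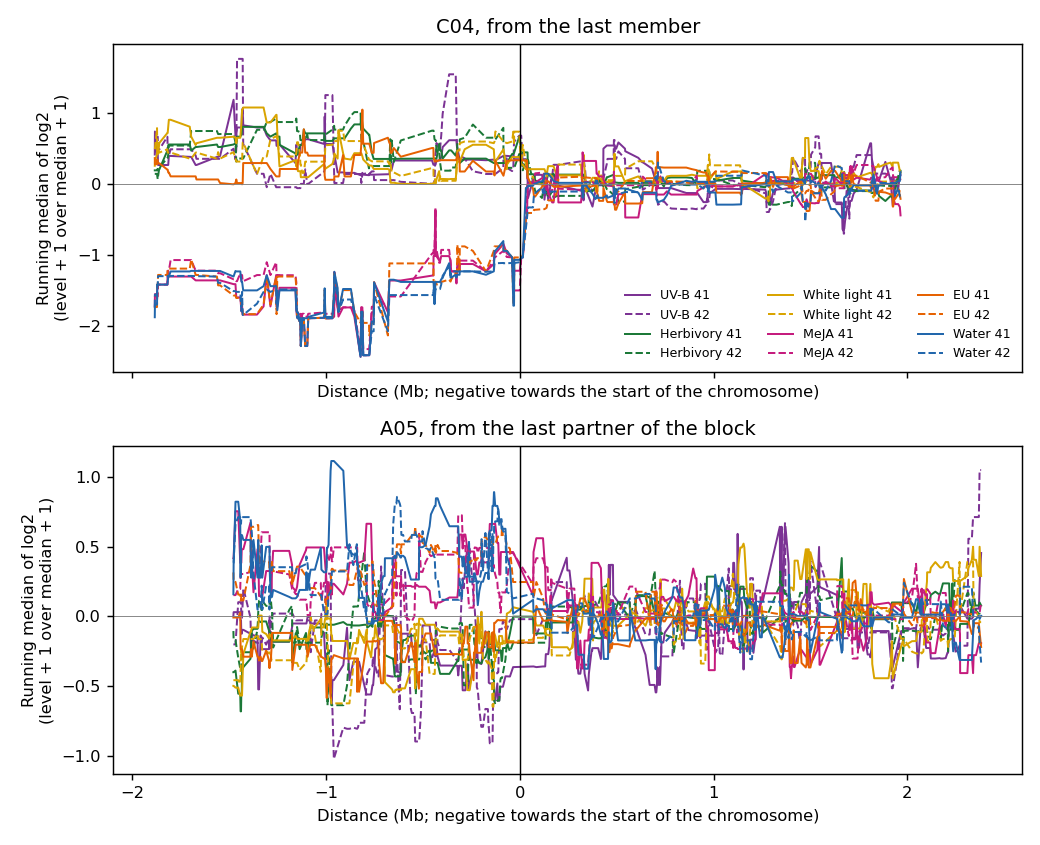
Running median over 11 neighbouring loci of log2(level + 1 over the median of the 12 libraries + 1), along the first 4 Mb of C04 (top, distance from the last member) and A05 (bottom, distance from the last partner of the block). Solid lines are libraries 41 and dashed lines 42. The 2 MeJA, the 2 water and the EU 42 lines lie below -1 on most of C04 left of the line and return to 0 to its right, and lie mostly above the others on A05 left of the line.

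The last loci inside the limit of the stretch were BnaC04g02570D, which was listed at 0 in every library, and 2 basic helix-loop-helix factors. BnaC04g02580D (C04, 1917163 to 1919061, matching AT2G42280) had 3.77 and 3.14 in UV-B, 3.14 and 2.17 in herbivory, 3.40 and 3.32 in white light, 0.461 and 0.295 in MeJA, 3.59 and 0.132 in EU, and 0.117 and 0.396 in water, all in scaled FPKM. BnaC04g02590D (start 1919934, AT2G42300) had 1.60 and 0.490 in UV-B, 2.24 and 2.40 in herbivory, 1.65 and 3.91 in white light, 0 and 0 in MeJA, 7.39 and 0 in EU, and 0 and 0 in water. Low levels went on in the first loci beyond the limit. BnaC04g02600D (1927282 to 1927845, AT2G42310, unknown protein) had 8.79 and 20.4 in UV-B, 17.2 and 16.9 in herbivory, 26.1 and 26.9 in white light, 0.181 and 0 in MeJA, 16.0 and 0 in EU, and 0 and 0 in water. BnaC04g02610D (1930374 to 1932840, AT2G42320, a nucleolar gar2-related protein) had 0.736 and 0.479 in UV-B, 1.29 and 2.76 in herbivory, 2.41 and 1.05 in white light, 0 and 0.084 in MeJA, 1.66 and 0 in EU, and 0 and 0 in water. The next locus, BnaC04g02620D (1932985 to 1933237), was listed at 0 in every library. Another 3 loci are named after their values were seen. BnaC04g02660D (1935326 to 1936068, emb2184) had 7.33 and 28.3 in UV-B, 44.8 and 21.8 in herbivory, 32.0 and 21.7 in white light, 5.66 and 4.44 in MeJA, 31.0 and 6.66 in EU, and 6.40 and 6.23 in water. It was thus low in the same libraries, but less deeply. At BnaC04g02720D (1951330 to 1953686, AT2G43110, unknown protein), the next locus with a mean of at least 1 scaled FPKM, levels overlapped: it had 0.957 and 0.407 in UV-B, 4.04 and 8.12 in herbivory, 1.29 and 3.50 in white light, 0.644 and 0.656 in MeJA, 1.14 and 1.69 in EU, and 1.21 and 1.97 in water. BnaC04g02740D (1960027 to 1961295, the small GTPase RABA5C) had 27.8 and 28.8 in UV-B, 17.0 and 14.4 in herbivory, 22.6 and 24.0 in white light, 24.2 and 27.0 in MeJA, 18.3 and 29.4 in EU, and 23.6 and 27.5 in water. There too the levels of these libraries overlapped with the others.

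On A05 the matching change ran over a shorter distance. The A05 partners of the last 2 matched C04 members started at 1458550 (BnaA05g02720D, AT2G42280) and 1461288 (BnaA05g02730D, AT2G42300). Over all A05 loci with a mean of at least 1 scaled FPKM, not only partners, the median difference of EU 42 from EU 41 in log2(scaled FPKM + 1) was between 0.57 and 0.74 in each 0.25 Mb bin up to 1.5 Mb. It was 0.08 over 16 loci from 1.5 to 1.75 Mb and between -0.02 and 0.08 in the bins beyond, up to 4 Mb. For herbivory minus water the medians were between -0.82 and -0.40 up to 1.5 Mb and -0.12 from 1.5 to 1.75 Mb. The bins of 1.5 Mb and beyond held no partner with a mean of at least 1 scaled FPKM.

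The levels of A05, C04 and their sum were compared set by set in the 97 sets with at least 2 scaled FPKM in the white light libraries. The sets were sorted by the C04 share they had in white light. Whether A05 levels respond to those of C04 was not tested. EU 42 against EU 41 compares 2 libraries of 1 treatment, with no replicate. A05 was higher in EU 42 in 91 of the 97 sets, with a median difference of 0.70 in log2(scaled FPKM + 1), and C04 was lower in 93 sets, with a median of -2.04. The sum of both copies differed by a median of -0.04 and lay within 0.5 in 65 sets (67.0%), beside 75.9% of 35229 other loci at least as high in white light. Those loci were taken singly, whereas a set sums its copies, so the percentages are not of like units, here and below. For herbivory minus water, A05 was lower in 81 sets (median -0.66), C04 was higher in 96 (median 2.12), and the sum had a median of 0.16 and lay within 0.5 in 59 sets (60.8%), beside 57.6% of the other loci.

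In log2(scaled FPKM + 1), the A05 difference did not grow with the C04 share. Adding 1 before the log shrinks differences at low levels. Some sets with a high C04 share had low A05 levels, such as water means of 0.334 for AT2G41830 and 0.801 for AT2G41450. Whether this hides a trend with the share was not tested. In 28 sets with a C04 share under 40% in white light, A05 was 0.73 higher in EU 42 than in EU 41. It was 0.75 higher in 43 sets with a share of 40 to 60% and 0.55 higher in 26 sets with a share over 60%. Across the 97 sets, which share libraries, the share and the A05 difference had a Pearson correlation of -0.06 (Spearman -0.03) for EU 42 minus EU 41 and of -0.08 (Spearman -0.08) for herbivory minus water.

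The sum of both copies differed between these classes. Where C04 is low and the A05 difference is alike in each class, this follows by arithmetic, so it is a description. Its median difference, EU 42 minus EU 41, was 0.22 in sets with a share under 40%, 0.00 at 40 to 60% and -0.39 over 60%. In the last class 11 of 26 sets were lower by over 0.5 and 1 was higher by over 0.5, whereas 3 and 8 of 28 were so in the first. For herbivory minus water the medians of the sum were -0.02, 0.09 and 0.47 over the same 3 classes.

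**Figure D4:**
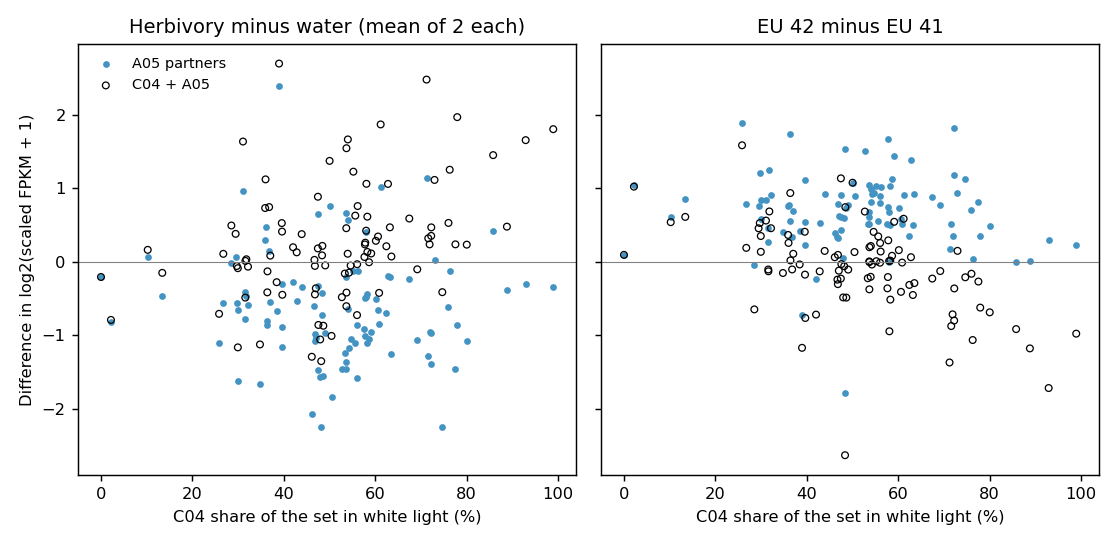
Each of the 97 sets has a filled point for A05 and an open point for C04 plus A05. The x axis gives the C04 share of the set in the white light libraries in percent, and the y axis the difference in log2(scaled FPKM + 1) for herbivory minus water (left, means of 2 libraries each) and EU 42 minus EU 41 (right, 1 library each). Filled points lie mostly below 0 on the left and above 0 on the right at most shares, and the open points scatter around 0 except at C04 shares over 60%, where their medians are 0.47 on the left and -0.39 on the right.

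Single genes show the copies side by side. CURT1B, which shapes the grana margins of chloroplasts, had the highest C04 level. BnaC04g00600D (483623 to 485170) had 342 and 605 in UV-B, 342 and 162 in herbivory, 788 and 255 in white light, 2.67 and 5.16 in MeJA, 139 and 2.96 in EU, and 7.91 and 2.28 in water, all in scaled FPKM. Its partner BnaA05g01060D (A05, 586093 to 587671) had 202 and 444 in UV-B, 226 and 121 in herbivory, 568 and 193 in white light, 173 and 454 in MeJA, 84.5 and 271 in EU, and 524 and 174 in water. The C04 copy was thus above the A05 copy in each library of UV-B, herbivory and white light and in EU 41, and was under 8 scaled FPKM in the others.

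CCA1 and SPA1 were also lower on C04 in MeJA, EU 42 and water than in the other libraries. CCA1, a MYB-type factor of the morning part of the circadian clock, is BnaC04g00590D (477220 to 482905), with 13.2 and 30.9 in UV-B, 18.4 and 7.41 in herbivory, 22.9 and 3.39 in white light, 0 and 0.029 in MeJA, 3.35 and 0 in EU, and 0.058 and 0 in water. Its partner BnaA05g01050D (582377 to 585233) had 41.6 and 77.7 in UV-B, 54.0 and 24.5 in herbivory, 66.4 and 9.04 in white light, 32.3 and 100.4 in MeJA, 13.5 and 52.7 in EU, and 111 and 60.4 in water. It was above C04 in every library. SPA1, which acts with COP1 to repress light responses, had 35.8 and 52.8 in UV-B, 17.9 and 11.7 in herbivory, 23.3 and 13.3 in white light, 1.20 and 2.17 in MeJA, 9.43 and 1.29 in EU, and 2.17 and 0.595 in water on C04 (BnaC04g01130D). Its A05 copy BnaA05g01470D had 41.6 and 64.0 in UV-B, 22.5 and 15.7 in herbivory, 29.5 and 17.3 in white light, 21.7 and 39.6 in MeJA, 10.7 and 21.1 in EU, and 37.4 and 11.5 in water. PRR9, a pseudo-response regulator of the clock, was low in most libraries: BnaC04g00640D had 0.737 to 23.1 in UV-B, herbivory and white light, 0.424 in EU 41, 0.115 in EU 42 and 0 to 0.254 in MeJA and water. BnaA05g01090D had 0.080 to 5.42 in UV-B, herbivory and white light, 0.341 in EU 41, 0.294 in EU 42 and 0.102 to 0.364 in MeJA and water.

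Among hormone genes, JAR1 joins jasmonate to isoleucine, which makes the active hormone. BnaC04g01170D (952782 to 955260) had 30.7 and 5.73 in UV-B, 8.48 and 12.7 in herbivory, 16.9 and 19.9 in white light, 0.339 and 0.435 in MeJA, 12.4 and 0.536 in EU, and 0.430 and 0.292 in water. BnaA05g01450D (843130 to 846310) had 38.5 and 17.6 in UV-B, 19.3 and 26.7 in herbivory, 47.9 and 44.3 in white light, 24.6 and 25.6 in MeJA, 21.2 and 20.6 in EU, and 23.5 and 22.9 in water. The A05 copy of JAR1 was thus highest in white light. In MeJA, EU and water it lay below UV-B 41 and herbivory 42 and above UV-B 42 and herbivory 41. The homeodomain factor ATHB7, induced by abscisic acid, had 2.65 to 22.8 in UV-B, herbivory and white light, 3.88 in EU 41, 0 in EU 42 and 0 in MeJA and water on C04 (BnaC04g00750D). On A05 (BnaA05g01190D) it had 3.09 to 14.1 in UV-B, herbivory and white light, 5.03 in EU 41, 7.79 in EU 42 and 8.99 to 21.2 in MeJA and water. C04 was thus at 0 for ATHB7 in MeJA, EU 42 and water, while A05 was at its highest in water 42. The bZIP factor GBF3 had 3.90 to 33.2 in UV-B, herbivory and white light, 3.91 in EU 41, 0 in EU 42 and 0 to 0.107 in MeJA and water on C04 (BnaC04g01070D). SAUR32, a small auxin-up protein, had 2.87 to 9.64 in UV-B, herbivory and white light, 2.59 in EU 41, 0 in EU 42 and 0 to 0.537 in MeJA and water on C04 (BnaC04g00740D). Its partner BnaA05g01170D had 1.70 to 11.1 in UV-B, herbivory and white light, 2.53 in EU 41, 9.27 in EU 42 and 4.22 to 6.80 in MeJA and water.

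Among stress and defence genes, CNGC3, a cyclic nucleotide-gated channel, had 6.73 to 23.8 in UV-B, herbivory and white light, 5.98 in EU 41, 0 in EU 42 and 0 to 0.034 in MeJA and water on C04 (BnaC04g01250D). On A05 (BnaA05g01380D) it had 13.4 to 38.5 in UV-B, herbivory and white light, 12.7 in EU 41, 22.5 in EU 42 and 10.1 to 20.8 in MeJA and water. The defence factor WRKY46 had 1.65 to 8.06 in UV-B, herbivory and white light, 1.87 in EU 41, 0.387 in EU 42 and 0 to 0.172 in MeJA and water on C04 (BnaC04g01210D). On A05 (BnaA05g01410D) the levels were 0.148 to 7.51 in UV-B, herbivory and white light, 0.449 in EU 41, 1.96 in EU 42 and 0.601 to 2.14 in MeJA and water. These factors act in defence and drought responses. The co-chaperone BAG6 had 0.652 to 2.14 in UV-B, herbivory and white light, 2.02 in EU 41, 0 in EU 42 and 0 in MeJA and water on C04 (BnaC04g01000D). Its partner BnaA05g01560D had 0.483 to 1.54 in UV-B, herbivory and white light, 1.43 in EU 41, 2.46 in EU 42 and 1.75 to 3.91 in MeJA and water. TSPO, a tryptophan-rich sensory protein, had 0.700 to 10.9 in UV-B, herbivory and white light on C04 (BnaC04g00110D). There it had 0.927 in EU 41 and 0 in EU 42, MeJA and water. On A05 (BnaA05g00220D) TSPO had 0.288 to 1.92 in UV-B, herbivory and white light, 0 in both EU libraries and 0 to 0.163 in MeJA and water. LACS1, an acyl-CoA synthetase of cuticle formation, was at 0 in all 12 libraries at BnaC04g00320D and at its first A05 partner BnaA05g00630D. The second partner BnaA05g00640D had 3.17 to 7.45 in UV-B, herbivory and white light, 4.24 in EU 41, 4.60 in EU 42 and 2.82 to 5.83 in MeJA and water.

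Further sets with high levels were also lower on C04 in MeJA, EU 42 and water. OEP16-3, annotated to the mitochondrial Tim17/Tim22/Tim23 import family, is BnaC04g02530D near the limit (1890191 to 1891221), with 18.1 and 36.7 in UV-B, 28.8 and 24.4 in herbivory, 39.1 and 36.0 in white light, 0 and 0 in MeJA, 28.3 and 0.254 in EU, and 0 and 0.188 in water. BnaA05g02690D had 21.9 and 29.3 in UV-B, 32.7 and 24.6 in herbivory, 40.8 and 37.2 in white light, 56.6 and 49.4 in MeJA, 32.6 and 56.2 in EU, and 47.6 and 66.5 in water. Both MeJA, EU 42 and both water libraries were above all others there. EXPA8 had 25.1 to 148 in UV-B, herbivory and white light, 40.4 in EU 41, 0 in EU 42 and 0 to 0.240 in MeJA and water at BnaC04g01470D. At BnaA05g01790D the levels were 23.0 to 86.9 in UV-B, herbivory and white light, 46.1 in EU 41, 127 in EU 42 and 41.2 to 191 in MeJA and water. Expansins act on cell walls during growth, and here A05 carried nearly all of the RNA in MeJA, EU 42 and water. The small GTPase ARFA1E had 14.8 to 39.2 in UV-B, herbivory and white light, 17.4 in EU 41, 0 in EU 42 and 0 to 0.184 in MeJA and water at BnaC04g00340D. Its partner BnaA05g00730D, the higher copy in every library, had 47.0 to 85.7 in UV-B, herbivory and white light, 46.3 in EU 41, 87.9 in EU 42 and 83.5 to 104 in MeJA and water. NTRC, a plastid thioredoxin reductase, had 15.0 to 48.8 in UV-B, herbivory and white light, 13.4 in EU 41, 0.401 in EU 42 and 0.257 to 0.869 in MeJA and water at BnaC04g02020D. Its A05 copy BnaA05g02330D had 32.7 to 96.8 in UV-B, herbivory and white light, 26.2 in EU 41, 63.9 in EU 42 and 40.9 to 107 in MeJA and water.

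Other high C04 members were KCS13, SPL1 and a pair of less known genes. KCS13, a fatty acid elongation enzyme, had 8.16 to 65.0 in UV-B, herbivory and white light, 35.2 in EU 41, 2.78 in EU 42 and 1.40 to 5.53 in MeJA and water at BnaC04g00710D. SPL1, a squamosa promoter binding factor, had 20.8 to 31.0 in UV-B, herbivory and white light, 22.8 in EU 41, 6.69 in EU 42 and 7.02 to 10.96 in MeJA and water at BnaC04g00420D. AT2G46220, a protein of unknown function, had 31.2 to 65.0 in UV-B, herbivory and white light, 62.2 in EU 41, 1.64 in EU 42 and 0.837 to 2.29 in MeJA and water at BnaC04g00970D. AT2G47710, of the adenine nucleotide alpha hydrolase family, had 7.91 to 66.5 in UV-B, herbivory and white light, 5.71 in EU 41, 0.228 in EU 42 and 0.085 to 0.404 in MeJA and water at BnaC04g00160D.

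**Figure D5:**
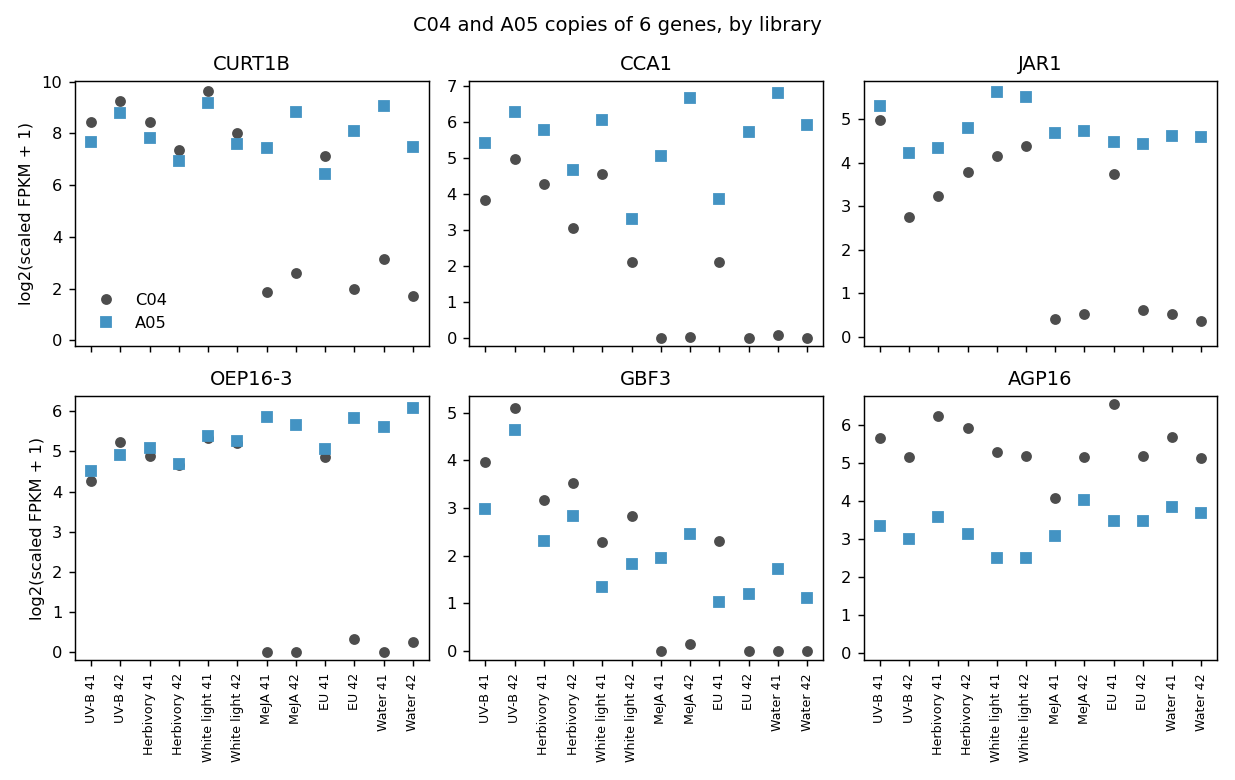
log2(scaled FPKM + 1) of the C04 (dark circles) and A05 (blue squares) copies of CURT1B, CCA1, JAR1, OEP16-3, GBF3 and AGP16 in the 12 libraries. The C04 points of the first 5 genes drop in MeJA, EU 42 and water, and those of AGP16 stay at 16.1 to 94.5 scaled FPKM in all 12. The C04 share of the AGP16 set was lower in MeJA, EU 42 and water (68.3 to 79.2%) than elsewhere (83.4 to 90.3%).

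Not every member was low together. Of 109 members with a white light mean of at least 1 scaled FPKM, 80 had a water mean under 0.1 of it (73.4%) and 6 kept at least 0.5 of it, named here after their values were seen. AGP16, an arabinogalactan protein of the cell surface (BnaC04g01120D, 912837 to 913631), had 49.7 and 34.9 in UV-B, 75.5 and 60.4 in herbivory, 38.6 and 35.4 in white light, 16.1 and 34.7 in MeJA, 94.5 and 35.4 in EU, and 51.1 and 34.1 in water. Its partner BnaA05g01480D had 4.67 to 11.1 in UV-B, herbivory and white light, 10.1 in EU 41, 10.2 in EU 42 and 7.46 to 15.4 in MeJA and water, below C04 in every library. The C04 share of the AGP16 set was still lower in MeJA, EU 42 and water, at 68.3 to 79.2%, against 83.4 to 90.3% elsewhere. BnaC04g01200D, without an Arabidopsis match (961892 to 962470), had 13.6 and 20.5 in UV-B, 23.8 and 24.0 in herbivory, 28.3 and 37.4 in white light, 23.3 and 15.6 in MeJA, 20.8 and 20.0 in EU, and 18.4 and 23.1 in water. The others were at lower levels. TFIIB, a general transcription factor (BnaC04g01970D), had 4.24 to 17.3 in UV-B, herbivory and white light, 8.53 in EU 41, 1.48 in EU 42 and 2.06 to 6.64 in MeJA and water. Its C04 share of the set was still lower in MeJA, EU 42 and water, at 9.69 to 13.1%, against 38.7 to 55.7% elsewhere. TFIIB brings RNA polymerase II to promoters. LIS (BnaC04g01920D) had 1.34 to 3.24 in UV-B, herbivory and white light, 1.96 in EU 41, 1.86 in EU 42 and 0.917 to 2.07 in MeJA and water. The neighbours BnaC04g02440D and BnaC04g02450D, both cysteine proteinases matched to AT1G02305, differed more between the libraries of a group: BnaC04g02440D had 1.87 to 9.77 in UV-B, herbivory and white light, 6.47 in EU 41, 5.11 in EU 42 and 2.30 to 18.6 in MeJA and water. Whether reads from other loci reached these 6 was not tested.

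Members without an A05 partner, 43 with an Arabidopsis match and 39 without, summed to 133 and 199 in UV-B, 145 and 159 in herbivory, 131 and 151 in white light, 47.2 and 24.4 in MeJA, 142 and 28.9 in EU, and 29.3 and 29.5 in water, all in scaled FPKM. Of these, 4 are named after their values were seen. The phosphoenolpyruvate carboxylase PPC2 (BnaC04g02430D, 1835657 to 1840418) had 23.2 and 20.1 in UV-B, 25.3 and 24.5 in herbivory, 19.6 and 22.6 in white light, 0.164 and 0.241 in MeJA, 16.8 and 0.161 in EU, and 0.238 and 0.162 in water. PP2A-3, a phosphatase catalytic subunit (BnaC04g02330D), had 11.6 to 18.2 in UV-B, herbivory and white light, 15.2 in EU 41, 0 in EU 42 and 0 to 0.114 in MeJA and water. NRPB2, a core subunit of RNA polymerase II (BnaC04g01050D), had 6.79 to 12.7 in UV-B, herbivory and white light, 9.93 in EU 41, 0.312 in EU 42 and 0.170 to 0.198 in MeJA and water. The vacuolar zinc transporter MTP1 (BnaC04g00620D) had 3.12 to 14.4 in UV-B, herbivory and white light, 6.84 in EU 41, 0.366 in EU 42 and 0.239 to 0.885 in MeJA and water. Each of these 4 was lower in MeJA, EU 42 and water than in white light.

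Few A05 partners were called between treatments. Limma was fitted to log2(scaled FPKM + 1) of all 50280 tested loci, and a locus was called at an adjusted p under 0.05 with an absolute log2 fold change of at least 1. For UV-B over white light, 7 of 118 tested A05 partners rose and none fell (5.93%), beside 3.54% of all loci. When C04 and A05 were summed to sets before the fit, 5 of 131 sets were called (3.82%), beside 3.53% of that table. These sums include the C04 levels that set the limits of the stretch, so the counts of sets are a description. The called sets had log2 fold changes of 7.12 (AT2G41730), 2.40 (AT2G41150), 1.97 (AT2G46915), 1.23 (AT2G41720) and -2.64 (AT2G40435). The count of A05 calls rested on single libraries: it was 0 without either white light library, 12 without UV-B 41, 2 without UV-B 42, 1 without either EU library, 3 without either herbivory or water library and 4 without either MeJA library. For the sets it was 0 without either white light library, 14 without UV-B 41, 1 without UV-B 42 and 1 without either EU library. With the 2 groups alone both counts were 0. Median log2 fold changes were 0.01 over the tested A05 partners and 0.00 over all loci.

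AT2G41730, a short protein of unknown function, had the largest fold change under UV-B among the called A05 partners. Its set has 3 C04 members and 2 A05 partners. BnaC04g02080D (1589211 to 1589604) had 19.2 and 569 in UV-B, 0.299 and 0.814 in herbivory, 0.482 and 0.392 in white light, 0.624 and 0.616 in MeJA, 8.16 and 1.79 in EU, and 0 and 0.257 in water. BnaC04g02100D had 40.5 and 410.0 in UV-B and 0 and 0.392 in white light. The A05 partner BnaA05g02380D (1322410 to 1322803) had 18.5 and 257 in UV-B, against 0 and 0.392 in white light, a log2 fold change of 5.91 (SE 0.91, adjusted p by limma = 0.0191), and it was the A05 partner with the smallest p. UV-B 42 was far above UV-B 41 at each of the 3 loci, and how reads were divided among these copies was not tested.

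The other called A05 partners had smaller changes. BnaA05g00980D (558022 to 561638, AT2G46915, unknown function) had 25.5 and 32.0 in UV-B, against 7.30 and 4.48 in white light, a log2 fold change of 2.13 (SE 0.38, adjusted p by limma = 0.0267). BnaA05g02010D (AT2G41150, unknown protein) had 4.90 and 10.5 in UV-B, against 0.488 and 1.34 in white light (log2 fold change 2.14, adjusted p by limma = 0.0362). AT2G47710 on A05 (BnaA05g00280D) had 89.6 and 140.3 in UV-B, against 16.4 and 24.2 in white light (log2 fold change 2.43, adjusted p by limma = 0.0460). The factor GBF3 on A05 (BnaA05g01520D) had 6.84 and 23.7 in UV-B, against 1.53 and 2.53 in white light (log2 fold change 2.22, adjusted p by limma = 0.0486). BnaA05g00570D (AT2G16760, a calcium-dependent phosphotriesterase) rose (log2 fold change 1.40, adjusted p by limma = 0.0446), as did EMB2654 (BnaA05g02360D), a TPR-like protein (log2 fold change 1.37, adjusted p by limma = 0.0495). In 12 fits that each left out 1 library, BnaA05g02380D was called in 10, BnaA05g00980D in 7, BnaA05g02010D in 5, BnaA05g00280D in 2, GBF3 and BnaA05g00570D in 1 each and EMB2654 in 0.

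For MeJA over water, 2 of the 118 tested A05 partners rose and none fell (1.69%), beside 0.449% of all loci. GPT, an enzyme of the dolichol pathway of protein glycosylation (BnaA05g02220D, 1248350 to 1251010), had 15.7 and 15.1 in MeJA, against 1.94 and 2.49 in water, a log2 fold change of 2.35 (SE 0.32, adjusted p by limma = 0.0310). Cytochrome b5 isoform C (BnaA05g01210D, 717990 to 718997) had 43.1 and 57.3 in MeJA, against 2.61 and 1.47 in water, a log2 fold change of 4.09 (SE 0.66, adjusted p by limma = 0.0427). The set of AT2G41475 was the 1 called of 131 (0.763%), beside 0.446% of that table. Its C04 member BnaC04g01900D (embryo-specific protein 3) had 5.76 and 8.17 in UV-B, 21.8 and 29.1 in herbivory, 13.7 and 15.7 in white light, 27.1 and 31.1 in MeJA, 15.2 and 12.7 in EU, and 4.95 and 4.55 in water. The count of A05 calls was 1 without either UV-B library and 0 without either library of herbivory, MeJA, EU or water. The set was not called without either library of UV-B, herbivory, MeJA, EU or water, and 2 sets were called without either white light library.

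No A05 partner was called by limma for herbivory over white light, EU over water or MeJA over EU, beside 0.0219%, 0.00398% and 0.00398% of all loci. At an unadjusted p under 0.05 there were 7, 8 and 15 of the 118 partners. No set was called either, beside 0.0219%, 0.00399% and 0.00399% of that table, with 9, 5 and 17 of 131 at an unadjusted p under 0.05. The smallest p of an A05 partner belonged to BnaA05g00320D for herbivory over white light (0.572 and 0.708 in herbivory, against 4.99 and 7.79 scaled FPKM in white light, limma adjusted p = 0.340). It belonged to BnaA05g01750D for EU over water (0 and 0.567 in EU, against 1.92 and 2.78 in water, limma adjusted p = 0.610) and to GPT again for MeJA over EU (15.7 and 15.1 in MeJA, against 3.61 and 3.72 in EU, limma adjusted p = 0.191). The 2 EU libraries differed in both copies across the whole stretch, and this difference enters the spread that all comparisons share: over the tested loci the median log2 fold change of EU over water was 1.04 for C04 members, -0.37 for A05 partners, 0.02 for sets and 0.01 for all loci.

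Of the 20 hand-listed genes in the stretch, 13 A05 partners were tested. For UV-B over white light limma called 1 of these 13, that of GBF3, beside 3.54% of all loci, and this call was made in 1 of the 12 fits with a library left out. No other A05 partner of the list was called by limma in any of the 5 comparisons.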

How the data were processed

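RNA-seq of leaf tissue from 12 libraries, 2 in each of 6 treatments, was used. The labels state 3 biological replicates a treatment, and only the 2 with labelled samples were used here. The deposited matrix holds FPKM values that the authors made with TopHat2 and Cufflinks 2.2.1, per the submitters' processing notes. The genome build of the locus positions is not given in the sources used here. In the 4 deposited comparison tables, 22 library columns match no label and were not used, and 1 locus marked HIDATA was left out. These tables also hold the authors' fold changes and p-values, which were not used. One of them gave locus positions and Arabidopsis matches. Sources differ on when grazed leaves were harvested after feeding.

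Each library was divided by the median, over 46905 loci above 0 in all libraries, of its ratio to their mean. Limma 3.58.1 (R 4.3.3) was fitted to log2(scaled FPKM + 1) with all 6 treatments sharing 1 estimate of the spread, on loci with at least 1 scaled FPKM in at least 2 libraries. Benjamini-Hochberg adjustment ran over all loci tested, and a call needed an adjusted p under 0.05 and an absolute log2 fold change of at least 1. The scripts were tested on simulated data. With 2 against 2 libraries, an exact permutation test of a single value cannot go below p = 0.333. Read depth is unknown, and no interval for counting error can be given. Python 3.11.15, pandas 2.3.3 and matplotlib 3.10.9 made the tables and plots.

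The members, gene lists and tests were chosen with earlier results of these data known. Named genes were the 10 highest C04 members, the 10 highest sets of 1 C04 member and 1 A05 partner, listed genes of known role in sets of at least 1 scaled FPKM (up to 4 a role), the 3 loci on each side of the limit, every called A05 partner and the A05 partner with the smallest p in each comparison. Alternatives covered the scaling, the filter, the pseudocount, the fold minimum, the groups in the fit, a replicate block, left-out libraries, the choice of sets, and the window of the running median. No nucleotide sequence was used here.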

Additional observations from a re-analysis of the deposited data

How the results depend on the processing

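The C04 share and the position of the edge changed little with the processing. Counts of called loci and sets, and the order of the groups in total output, depended on it. For UV-B over white light, 7 A05 partners were called, against 2 with the values as deposited, 2 with equal library totals, 2 with no filter on low values, 4 with a pseudocount of 0.1 and 0 with the 2 groups compared alone, and leaving out 1 library gave 0 to 12. The 5 sets became 2 with the values as deposited and 0 with the groups alone, and 0 to 14 with 1 library left out. For MeJA over water, the 2 A05 partners became 1 with equal totals and 0 with no filter, with a pseudocount of 0.1 and with the groups alone, and 0 to 2 with 1 library left out. The 1 set became 2 with equal totals and 0 with the groups alone, and 0 to 2 with 1 library left out. Where a library left out leaves 1 in a group, that library was assumed to vary like the other groups.

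Replicate numbers are only names here: same-numbered libraries deviated together with a correlation above 0.1 in 4 of 15 pairs of groups (range -0.37 to 0.41). With the replicate number as a replicate block, 0 A05 partners were called for MeJA over water and 5 for UV-B over white light, and the other counts of A05 partners and sets stayed within 1.5 times.

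The mean C04 share per group was 49.5% in UV-B and 6.06% in MeJA over sets of 1 C04 member and 1 A05 partner. Without the 3 highest sets it was 45.5% in UV-B, 50.5% in herbivory, 48.8% in white light, 7.54% in MeJA and 6.73% in water. Over members that start in the first 1 Mb it was 50.2% in UV-B, 52.9% in herbivory, 5.71% in MeJA and 6.51% in water. The mean summed output without the 3 highest sets was 1733 in herbivory, 1821 in white light, 1676 in MeJA, 1526 in EU and 1654 in water, and in the first 1 Mb it was 1465, 2010.2, 1263, 1114 and 1333 scaled FPKM in the same order of groups. In EU it was 2089 with equal totals and 1841 over sets of 1 and 1. The median log2 set total, with the values as deposited, was -0.28 in UV-B, -0.25 in white light, -0.10 in MeJA, -0.055 in EU and -0.053 in water. With equal totals it was -0.32 in UV-B, 0.14 in herbivory, -0.26 in white light, -0.29 in MeJA, 0.035 in EU and -0.12 in water. These scalings shift the median of all loci by -0.48 to 0.06 and by -0.69 to 0.29. Over sets of 1 and 1 it was -0.070 in white light and -0.16 in EU, and in the first 1 Mb 0.033 in UV-B, -0.13 in white light, -0.35 in MeJA, -0.22 in EU and -0.23 in water. Matching identifiers without the transcript suffix, chosen after seeing the data, gave 168 in place of 167 sets and moved no share or total beyond the spread between libraries.

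The last running median below -1 moved to 1.88 and 1.89 Mb in MeJA, 1.85 Mb in EU 42 and 1.88 and 1.89 Mb in water over 21 loci, and to 1.99 and 1.96 Mb in MeJA, 1.93 Mb in EU 42 and 1.93 Mb in water 41 over loci of at least 5 scaled FPKM. The cause of these changes was not tested.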
